A study of Mus musculus with 6 samples.

Results

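A set of 412 circRNAs was detected on both D4 and D8 of white adipogenesis but not on D0, out of 3662 circRNAs (11.3%). A circRNA counted as detected at a stage when it had 2 or more back-splice reads in both libraries of that stage. The 412 circRNAs, here called gained, met this on D4 and on D8 and missed it on D0. These reads therefore chose the members, and their difference from D0 is described without a test. For comparison, 243 circRNAs were detected on D0 and D4 but not D8, 280 on D0 and D8 but not D4, and 1012 at all 3 stages.

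The cells came from the stromal vascular fraction of inguinal white fat of female mice aged 6 weeks, of the strain C57BL/6 in the labels and C57BL/6J in the study's methods. This fraction is what remains of a fat pad once the mature adipocytes are removed, and it holds preadipocytes, fibroblasts, endothelial cells, pericytes and leukocytes. D0 was the proliferating culture. The D4 cells had received induction medium with dexamethasone (0.3 mM), IBMX (0.63 mM) and insulin (2.85 mM), concentrations as the study states them. The D8 cells had then been kept in 200 nM insulin and 10 nM T3. All 6 libraries, 2 biological replicates a stage, were made from RNA depleted of rRNA and digested with RNase R, so the mRNA of the parental genes was not measured. Time in culture and hormone treatment changed together between the stages and cannot be told apart. In such bulk libraries fewer cells of a type and less RNA per cell cannot be told apart either.

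A circRNA is made when the end of an exon is joined backwards to its own start or to that of an exon upstream, which leaves a closed ring with no 5′ cap and no poly(A) tail. Its level depends on transcription of the parental gene, on the choice of back-splicing over linear splicing, and on the slow turnover of a molecule that exonucleases cannot attack. During adipogenesis the hormone cocktail acts through the glucocorticoid receptor, cAMP and insulin signalling, and PPARγ then turns on the genes of lipid storage.

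The back-splice is the sequence that only the circle holds, and it is shown for the gained circRNAs that the results turn on. Each run gives the last 15 bases of the circle in lower case, followed across the back-splice by its first 15 bases in capitals, 5′ to 3′ on the transcribed strand of mm9 (NCBIM37). The first group had no read on D0 and holds the 7 highest such members together with another Acss3 circle. The 3 Acss3 circles share sequence on one side or the other, which shows how a common donor or acceptor makes several circles of 1 gene.
Acss3 exons 3-5: actgggctgcctaagGTCTCTAAGCTGGCT
Acss3 exons 3-7: acagttttatatgagGTCTCTAAGCTGGCT
Acss3 exons 2-5: actgggctgcctaagGTTTGTGGAAGGGAT
Nfia exons 3-6: atgaagtagagccagATTCAAGTCAATCTG
Bmper exons 3-6: acatgctcctgcgttAACAAAGAGGTGACT
Bmper exons 12-13: taccactttctaccgAACCTGGTGTGTGCA
Mlxipl exons 4-8: tcatggagatatcagATGTGCAACGGAGGA
Cacna1d exons 2-3: acaaatcataacttgAGGCAAACTATGCAA

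The second group holds the other gained circRNAs among the 8 with the highest mean on D4 and D8, each of which had reads in 1 D0 library.
Slc10a7 exons 2-5: tttggaagttttttgGACCACTGAAGCCAG
Elf2 exons 2-4: agaattcagaaacagTAGTTCCAGAGAACC
Pitpnb exons 4-7: caagttgaaccagcaCAAAGTTCCTGCATT
Igf1r exon 2: atcgctgccagaaaaTCTGTGGGCCCGGCA
Fkbp5 exon 2: agttggcattcccagGTCCTTAGGATTCTG
Selenbp1 exons 6-7: ttctacaagaatgcgGGAGTTTTGTGCTGC
Ror1 exons 5-7: acatcccagcatgtgAGATGAGTATGAAGA

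The libraries held 30110 and 32310 back-splice reads on D0 against 43069 and 41658 on D4 and 45371 and 50672 on D8, so the D0 libraries held the fewest. How many reads were sequenced in all is not in the counts. Levels are given as reads or as circCPM, that is, scaled to 1000000 back-splice reads in each library. The gained circRNAs took 2.99% and 3.55% of all reads in the D0 libraries, where D4 gave 10.9% and 10.4% and D8 gave 10.4% and 10.9%. A detection minimum of equal circCPM in every library, set at 66.4 circCPM, which is what 2 reads were worth in the shallowest library, gave 320 gained circRNAs, of which 296 were among the 412. Adipocyte identity was checked through 9 circRNAs of 4 adipocyte marker genes (Pparg, Cd36, Lipe and Lpl). Their summed level was 0 in both D0 libraries, 302 and 432 circCPM on D4, and 1234 and 1362 circCPM on D8. Of the 9, 1 Pparg circle was itself gained, so the rule set part of this rise. It gave 116 and 144 circCPM of the sums on D4 and 242 and 237 on D8. It was also the only 1 of the 9 with enough reads to be tested. The only circle of a preadipocyte and fibroblast marker gene was at 266 and 310 circCPM on D0, then 69.7 and 0 on D4, then 88.2 and 98.7 on D8. The circles of endothelial and pericyte markers numbered 0, and the single circle of a macrophage marker gene was at 0 on D0 and D4 and at 220 and 78.9 circCPM on D8. The part of other cell types in the gained set was not tested.

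Most gained circRNAs had reads on D0. Only 120 (29.1%) had 0 reads in both D0 libraries, and the other 292 (70.9%) had reads in exactly 1 of them. The reads lay in replicate 1 alone for 139 and in replicate 2 alone for 153. No value of the deposited counts was exactly 1, so the rule itself left no gained circRNA above 0 in both. A listed 0 may stand for a single read. In the D0 library with more reads, 115 members had 2 to 4 reads, 126 had 5 to 9, 29 had 10 to 14, and 22 had 15 or more, up to 83. For 123 members that library was at or above their own mean over the 4 libraries of D4 and D8. In 194 members both D0 libraries were below all 4 later libraries, and the name gained fits those better than the rest. The rule used the same reads, and sets missing another stage also held circRNAs whose missing stage lay below all 4 other libraries. These were 102 of the 243 not detected on D8 and 139 of the 280 not detected on D4.

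**Figure D1:**
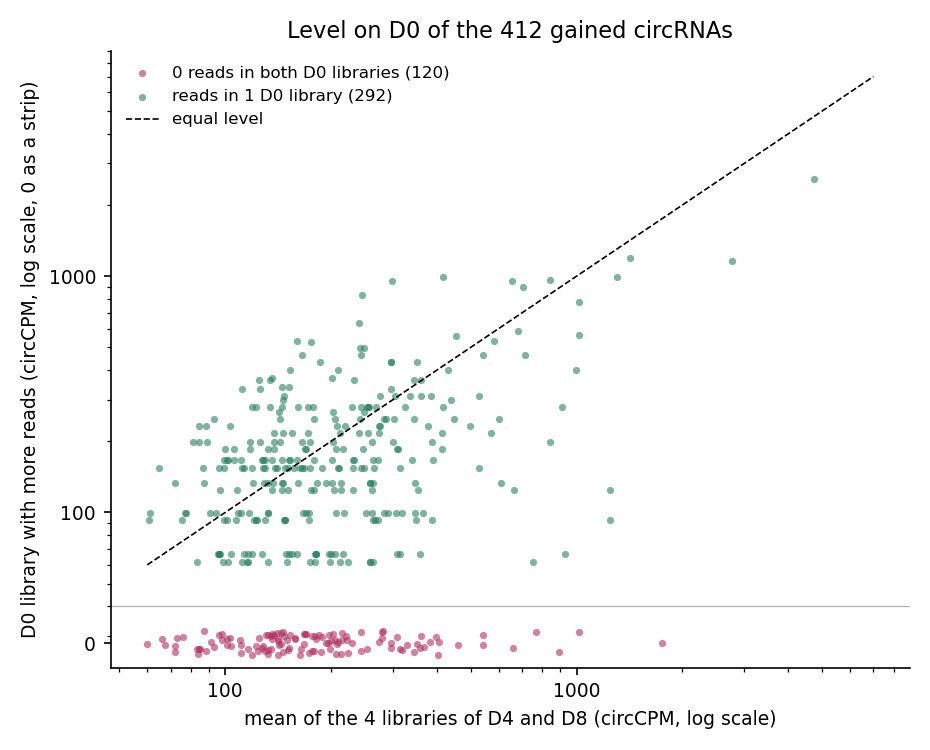
The D0 library with more reads (vertical axis, circCPM, log scale with 0 as a strip) is plotted against the mean of the 4 libraries of D4 and D8 (horizontal axis, circCPM, log scale) for each of the 412 gained circRNAs. The 120 circRNAs in the strip had 0 reads in both D0 libraries, and 123 of the other 292 lie on or above the dashed line of equal level.

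The other sets defined by a missing stage also held circRNAs with reads in only 1 library of that stage. With no count of exactly 1, the rule allows only this or 0 in both libraries, so only the shares can differ. Among the 243 circRNAs detected on D0 and D4 but not D8, 48 (19.8%) had 0 reads in both D8 libraries, and 44 had 15 or more in the lone library. Among the 280 detected on D0 and D8 but not D4, 77 (27.5%) had 0 in both D4 libraries and 19 had 15 or more in the lone one. All 3 sets thus held mostly circRNAs with an isolated 0 at the missing stage. No test compares the sets, since the same reads define them.

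Members and non-members lay close together at the limit of the rule. Just inside it, Ptk2 circ_0000612 had 0 and 31 reads on D0 against 25 and 8 on D4 and 10 and 10 on D8, its D0 replicate 2 being the highest library of all 6. Just outside it were 66 circRNAs of all 3 stages with exactly 2 reads in their lower D0 library. One of them, Pcsk5 circ_0000937, had 2 and 7 reads on D0, then 59 and 68 on D4, then 31 and 14 on D8. Its D4 libraries were far above D0, while D8 replicate 2, at 276 circCPM, was near D0 replicate 2, at 217. Mfsd14a circ_0010385 had 2 and 10 reads on D0 and 12 to 31 later, Rnf138 circ_0007158 had 2 and 11 and then 14 to 33, and Pcdh19 circ_0016105 had 19 and 2 and then 19 to 39. In all 3 the higher D0 library, at 310, 340 and 631 circCPM, was inside the range of the later libraries in circCPM. Phkb circ_0001708, from a phosphorylase kinase gene, had 2 and 11 reads on D0 and 19 to 24 in the later libraries. On the other side of the rule, 79 members had exactly 2 reads in the lowest of their 4 libraries of D4 and D8.

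The highest gained circRNA was a circle of Slc10a7, a solute carrier family member, from exons 2 to 5 at chr8:81039485-81102656 (plus strand), with no circBase entry. It had 0 and 83 reads on D0, then 293 and 212 on D4, then 159 and 184 on D8. Its D0 replicate 2, at 83 reads, was below all later libraries, and D0 replicate 1 was at 0. Elf2 circ_0001125, from an ETS transcription factor gene, lies at chr3:51111972-51129957 (minus strand) and followed with 35 and 0 reads on D0 against 129 and 116 on D4 and 112 and 144 on D8. Its 4 later libraries stood at similar levels, 2890 ± 149 circCPM on D4 and 2655 ± 264 on D8 (SD, n = 2).

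Pitpnb circ_0001390 (chr5:111775503-111778594, plus strand), from a phosphatidylinositol transfer protein gene, had 36 and 0 reads on D0, then 84 and 49 on D4, then 62 and 60 on D8. Igf1r circ_0001582 is exon 2 of the receptor for insulin-like growth factor 1 (chr7:75148696-75149241, plus strand), and had 0 and 32 reads on D0 against 61 and 43 on D4 and 46 and 89 on D8. In both cases the D0 library that held reads was within or near the range of the later ones, so the rule rested on the D0 library at 0. Stk39 circ_0001028, of a kinase that regulates ion cotransporters, had 0 and 25 reads, then 55 and 47, then 44 and 35, so that D0 replicate 2 lay between the D8 libraries in circCPM. Tle1, a Groucho corepressor gene, had 12 and 0, then 51 and 37, then 45 and 47 in its circle of exons 5 to 8. Ptpn4 circ_0008108, of a tyrosine phosphatase gene, had 0 and 9, then 47 and 45, then 29 and 42. In Tle1 and Ptpn4 the reads on D0 were below all 4 later libraries.

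Trappc9 circ_0005762, of a vesicle tethering complex, had 6 and 0, then 42 and 45, then 29 and 34. Frs2 circ_0001983, of an adaptor of FGF receptors, had 14 and 0, then 28 and 50, then 14 and 35. Trappc9 had both D0 libraries below all 4 later ones in circCPM, and Frs2 did not. Nus1 circ_0000166, of a dolichol synthesis subunit, had 0 and 29, then 39 and 33, then 20 and 34, with D0 replicate 2 inside the range of the later libraries. Of 19 of the 20 highest members, 9 had 10 or more reads in their higher D0 library and 4 had 0 in both.

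**Figure D2:**
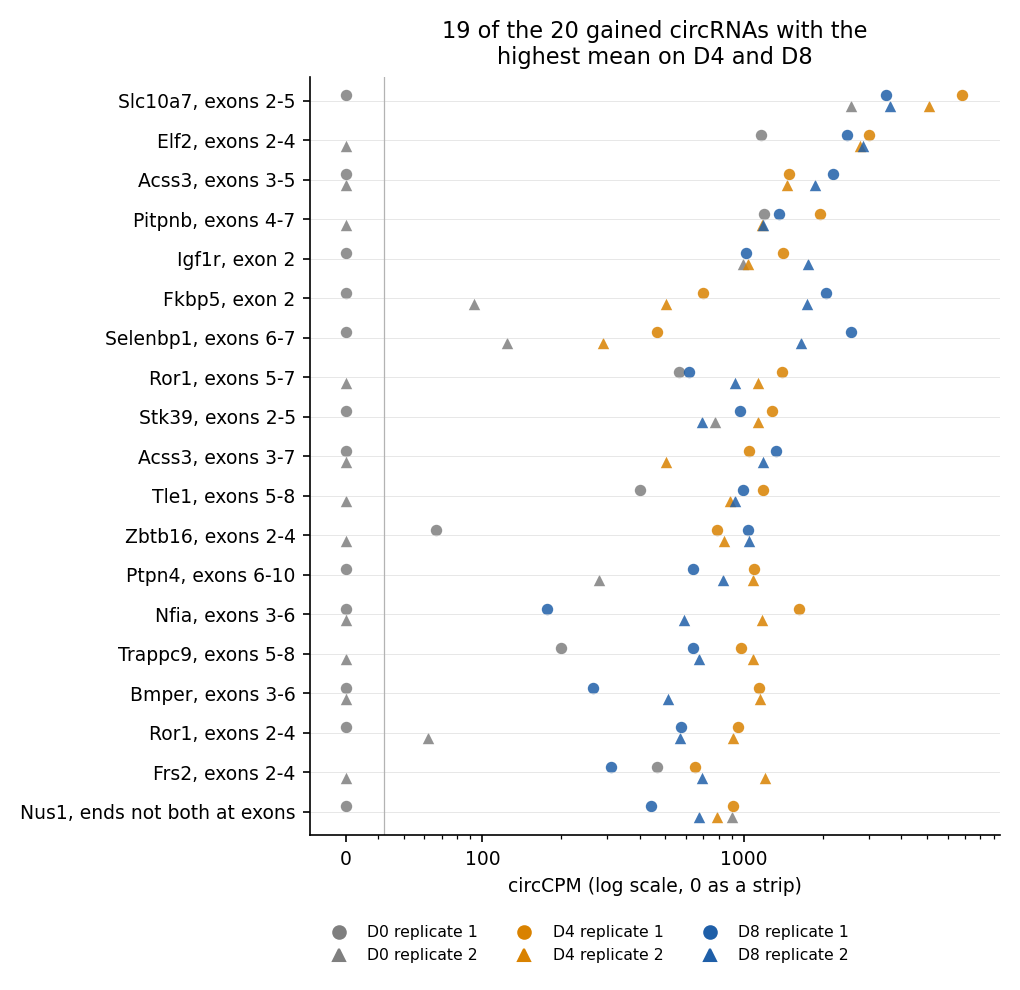
Level in each library (horizontal axis, circCPM, log scale with 0 as a strip) of 19 of the 20 gained circRNAs with the highest mean on D4 and D8, named by parental gene and exons, with circles for replicate 1 and triangles for replicate 2. Every one of the 19 has at least 1 grey D0 symbol at 0, which the rule forces as no count was exactly 1. In 15 of them both D0 symbols lie below all D4 and D8 symbols.

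The circRNAs with no D0 reads were led by Acss3, the gene of a mitochondrial acyl-CoA synthetase that acts on propionate. Its circle of exons 3 to 5 (chr10:106482269-106490572, minus strand) had 0 and 0 reads on D0, then 64 and 61 on D4, then 99 and 95 on D8. Against a floor of 3 reads per D0 library (96.2 circCPM on average) this was at least 15.3-fold higher on D4 and at least 21.1-fold higher on D8. The circle of exons 3 to 7 (chr10:106460710-106490572) had 45 and 21 reads on D4, then 60 and 60 on D8, and that of exons 2 to 5 (chr10:106482269-106522007) had 5 and 12, then 17 and 25. All 6 Acss3 circRNAs in the table were listed at 0 in both D0 libraries, and together they reached 2717 and 2376 circCPM on D4 and 4386 and 4006 on D8.

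Bmper, whose product is a secreted protein that binds BMPs, also had 0 reads on D0 over all of its 8 circRNAs, but a D4 peak. Its circle of exons 3 to 6 (chr9:23058816-23105466, plus strand) had 49 and 48 reads on D4 and 12 and 26 on D8. Circ_0015472, of exons 12 and 13 (chr9:23203794-23211275), had 48 and 25 on D4, then 8 and 14 on D8. These levels were at least 11.9-fold and 8.91-fold higher than the D0 floor on D4, and at least 4.04-fold and 2.35-fold on D8. The 8 Bmper circles summed to 3785 and 2689 circCPM on D4 against 441 and 967 on D8, and the libraries of both stages did not overlap.

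Nfia encodes a nuclear factor I transcription factor active in adipocytes. Its circle of exons 3 to 6 (chr4:97623065-97687645, plus strand) had 0 and 0 reads on D0 against 70 and 49 on D4 and 8 and 30 on D8. Another gained circle from the same acceptor, exons 3 to 7, had 4 and 0, then 49 and 31, then 5 and 23. The 8 Nfia circRNAs together held 133 and 61.9 circCPM on D0, then 3877 and 2881 on D4, then 419 and 1046 on D8. The D4 libraries were thus the high ones for this gene too.

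Mlxipl, the gene of the glucose-sensing lipogenic factor ChREBP, had the opposite order. Its circle of exons 4 to 8 (chr5:135597376-135599887, plus strand) was at 0 and 0 reads on D0 against 10 and 7 on D4 and 43 and 65 on D8. This was at least 2.08-fold over the D0 floor on D4 and at least 11.6-fold on D8. Cacna1d circ_0005172, exons 2 and 3 of an L-type calcium channel gene (chr14:31159984-31164135, minus strand), had 0 and 0, then 22 and 47, then 13 and 12. Over the 120 members at 0 on D0, the lower bound exceeded 2-fold on both D4 and D8 for 30 and 4-fold for 5, so for the others the depth on D0 could not show a 2-fold rise at both stages.

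**Figure D3:**
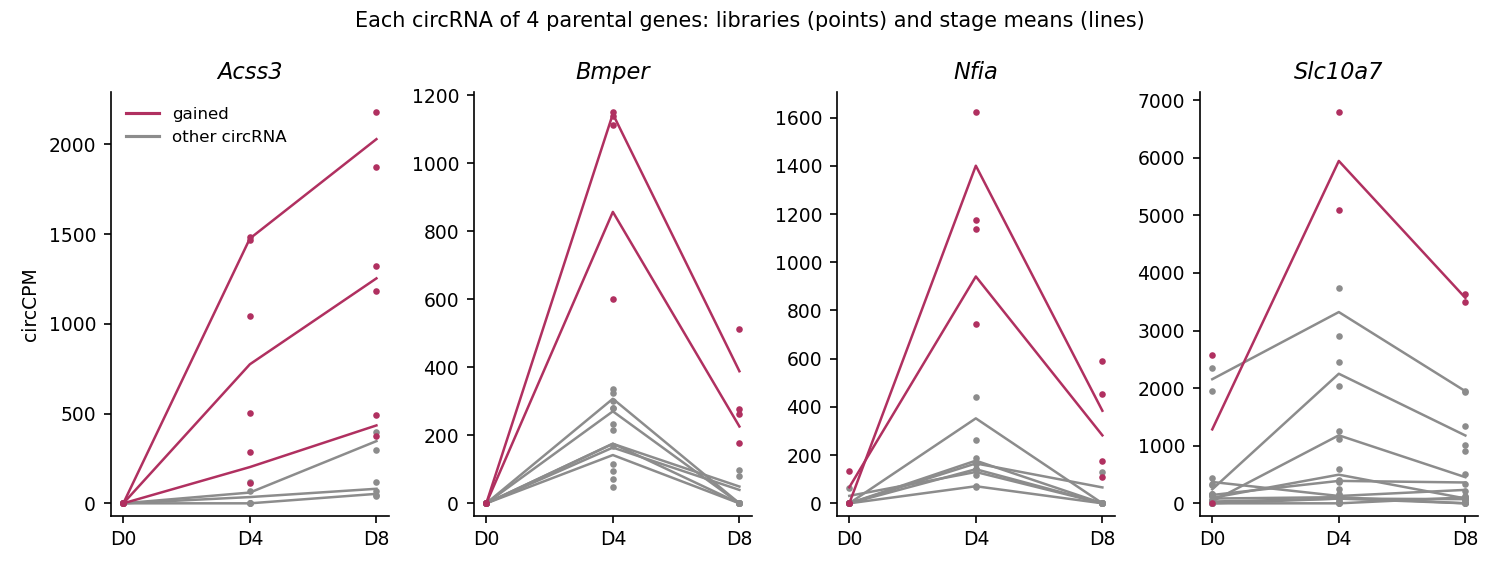
Level of each circRNA (vertical axis, circCPM, linear) of Acss3, Bmper, Nfia and Slc10a7 on D0, D4 and D8, with points for the libraries and lines through the stage means, gained circRNAs in red and other circRNAs of the gene in grey. The red lines are highest on D8 for Acss3 and on D4 for Bmper, Nfia and Slc10a7, and only Slc10a7 has several grey circRNAs with reads on D0.

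D8 and D4 were compared by a test, since the rule treats both stages alike apart from its floor of 2 reads in all 4 libraries. Of the 412 gained circRNAs, 178 passed the filter on low counts and entered the fit, and 234 did not. With edgeR's quasi-likelihood test and Benjamini-Hochberg adjustment over 1407 circRNAs, 0 gained circRNAs passed an adjusted p of 0.05, and the smallest adjusted p was 0.207. At an unadjusted p under 0.05 there were 8 of the 178 in edgeR, beside 172 of all 1407 tested. DESeq2 called 0 gained circRNAs, with 4 of 412 at an unadjusted p under 0.05, beside 175 of all 3662. In edgeR, 0.0711% of all circRNAs tested passed the adjusted threshold. The 8 are described below, and no difference between the stages is read from them.

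The 8 circRNAs with an unadjusted p under 0.05 split evenly in direction. Mlxipl stood at 200 ± 45.4 circCPM on D4 and 1115 ± 237 on D8 (SD, n = 2), a log2 fold change of 2.46 (SE 0.55, edgeR adjusted p = 0.207). Selenbp1, whose product is a selenium-binding oxidase, had 0 and 4 reads on D0, then 20 and 12 on D4, then 116 and 84 on D8 in its circle of exons 6 and 7 (chr3:94743568-94744148, plus strand). Its log2 fold change was 2.48 (SE 0.65, edgeR adjusted p = 0.231).

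Fkbp5, a glucocorticoid-induced co-chaperone of the glucocorticoid receptor, had 0 and 3 reads on D0 against 30 and 21 on D4 and 93 and 88 on D8 in the circle of its exon 2 (chr17:28644181-28644414, minus strand). The log2 fold change was 1.66 (SE 0.55, edgeR adjusted p = 0.283). The fourth with the higher values on D8 was Ralgapa2, from the gene of a Ral GTPase-activating protein subunit, with 9 and 4 reads on D4 and 26 and 28 on D8 (edgeR adjusted p = 0.407). In all 4 circles both D8 libraries lay above both D4 libraries, as in 25.6% of all circRNAs detected on both stages. These circles were picked by their p in the same comparison, so this order adds no support.

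The 4 with lower values on D8 were both Bmper circles, the Nfia circle of exons 3 to 6 and Cacna1d circ_0005172. Their log2 fold changes were -1.55 (SE 0.53) and -1.90 (SE 0.63) for Bmper, -1.85 (SE 0.64) for Nfia and -1.63 (SE 0.64) for Cacna1d, with edgeR adjusted p from 0.283 to 0.351. Each had both D8 libraries below both D4 libraries in circCPM, as in 23.3% of all circRNAs detected on both stages. That order likewise adds no support, since p in the same comparison picked them. The Nfia value was -1.24 without D8 replicate 1 and -2.96 without D8 replicate 2, that of Cacna1d was -0.97 without D4 replicate 2, and that of Ralgapa2 was 2.57 without D4 replicate 1, against 1.86 with all libraries. Over all alternative fits the adjusted p of these 8 circRNAs stayed above 0.05, the lowest being 0.0858 for Selenbp1.

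**Figure D4:**
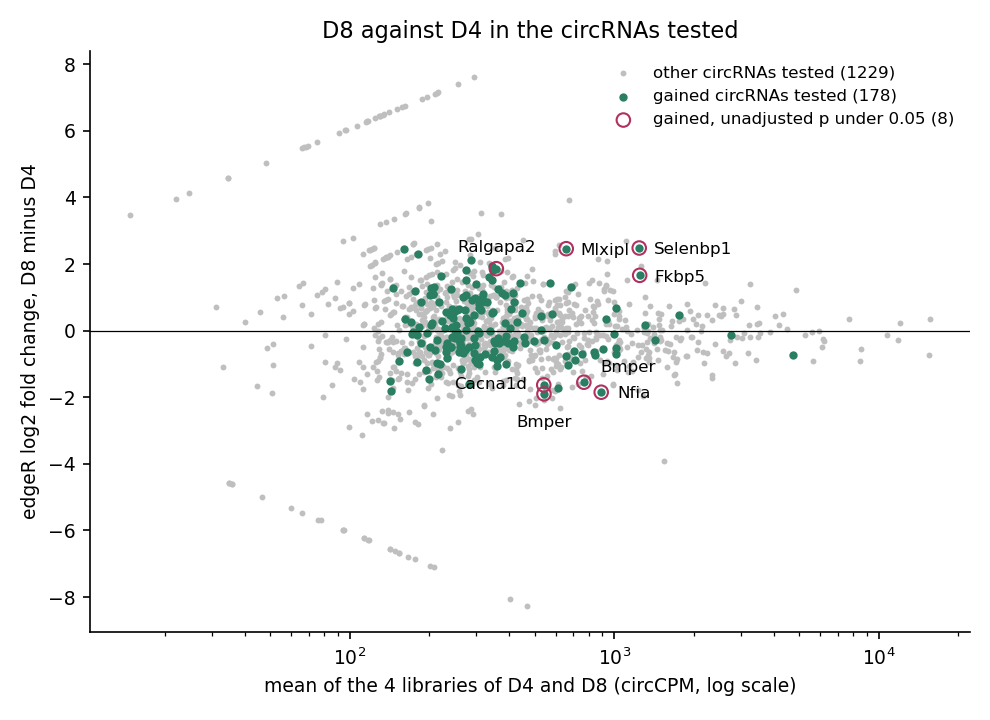
Log2 fold change of D8 minus D4 from edgeR (vertical axis) against the mean of the 4 libraries of both stages (horizontal axis, circCPM, log scale), with the 178 gained circRNAs tested in green and the other circRNAs tested in grey. The 8 ringed gained circRNAs had an unadjusted p under 0.05 and 0 passed the adjusted threshold, and the gained circRNAs lie between -1.90 and 2.48.

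Over all 412 members the median ratio of the D8 mean to the D4 mean was 0.987 (quartiles 0.693 and 1.54), beside 0.989 (0.7 and 1.5) for the 1012 circRNAs detected at all 3 stages. At least 2-fold above D4 on D8 were 59 members, and at least 2-fold below were 42, beside 128 and 104 of the 1012. In circCPM, the scale of all such counts here, both D8 libraries were above both D4 libraries for 103 (25%) and below for 84 (20.4%), where 25.6% and 23.3% of all 1424 circRNAs detected on both stages did so. These shares are near the background, so they are no result about the gained circRNAs. At few reads the depth alone can set such an order. Eif4b, a translation initiation factor gene, had 5 reads in each of the 4 libraries and so lay lower on D8 in circCPM.

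The parental genes were read through lists of functions, in which counts and medians stand beside the 11.3% of all circRNAs that were gained, with no test of any list. The list of lipid synthesis, storage and oxidation had 9 gained of 49 circRNAs (18.4%), from Acss3, Mlxipl, Etnk1, Mboat2, Acadm and Osbpl1a. Their median ratio of D8 to D4 was 1.87, and 7 of the 9 had both D8 libraries above both D4 libraries, beside the 25.6% of all circRNAs. Acss3 alone gave 3 of the 7, in circles that share ends. Acadm, of medium-chain fatty acid oxidation, had 0 and 6 reads on D0, then 6 and 4 on D4, then 11 and 10 on D8. Mboat2, a lysophospholipid acyltransferase gene, had 0 and 17, then 4 and 5, then 16 and 7, with its highest library in D0. The 2 exceptions had a lower mean on D8. Etnk1, of ethanolamine phosphorylation, had 15 and 11 reads on D4 and 10 and 11 on D8, and 1 of the 2 Osbpl1a circles had 2 and 15, then 3 and 4, with libraries that overlapped.

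Branched-chain amino acid and propanoate metabolism had 5 gained of 26 circRNAs (19.2%), of which 4 had no D0 read. Besides the 3 Acss3 circles they were Bckdhb circ_0015953 and a circle of Auh. Bckdhb encodes a subunit of the branched-chain keto acid dehydrogenase, and its circle had 0 and 0, then 8 and 25, then 24 and 15 reads. Auh, a gene of leucine breakdown, had 3 and 0 reads on D0 against 11 and 14 on D4 and 8 and 14 on D8. Glucose, glycogen and pyruvate metabolism held 1 gained circRNA of 26 (3.85%), Pfkfb1, with 2 and 0 reads on D0, then 2 and 3 on D4, then 14 and 15 on D8.

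Adipogenic transcription factors and coregulators had 10 gained of 83 circRNAs (12%), close to the background share. Pparg, the master regulator of fat cell formation, had 0 and 0 reads on D0 against 5 and 6 on D4 and 11 and 12 on D8 in its circle of exons 3 to 5. Zbtb16, a glucocorticoid-induced zinc finger factor, had 2 and 0, then 34 and 35, then 47 and 53 in its circle of exons 2 to 4. Both had higher values in both D8 libraries than in both D4 libraries, whereas both Nfia circles of this list and 1 Fndc3b circle had D8 below D4. These 2 and 3 of 10 lie near the 25.6% and 23.3% of all circRNAs.

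The list of cAMP, glucocorticoid and thyroid hormone response had the highest share, 9 gained of 40 circRNAs (22.5%). Dexamethasone and IBMX were in the medium before D4, while T3 was given only after D4. Whether these additives bear on the share was not tested. They came from Fkbp5, Zbtb16, Pde3a, Pde8a, Thrb and Trip12. All 3 Fkbp5 circRNAs in the table were gained. Beside exon 2, the circle of exons 5 to 8, circ_0006655, had 6 and 0 reads on D0, then 27 and 8 on D4, then 20 and 15 on D8, so D8 exceeded D4 in the exon 2 circle alone. Pde3a, a phosphodiesterase gene, had 15 and 0, then 6 and 6, then 15 and 18, and its D0 replicate 1, at 498 circCPM, was above all 4 later libraries. Thrb circ_0000504, of a thyroid hormone receptor gene, had 0 and 0, then 6 and 5, then 10 and 12.

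Insulin, PI3K and mTOR signalling had 10 gained of 65 circRNAs (15.4%), with Igf1r the highest. Sos2, a Ras exchange factor gene, had 0 and 18 reads on D0 and 15 to 25 in the later libraries, so only D0 replicate 1 stood apart. Tbc1d4, whose product regulates GLUT4 traffic, had 0 and 6 reads, then 4 and 29, then 9 and 13. Of the 10, 4 had D8 below D4 without overlap and 1 had D8 above, beside 23.3% and 25.6% of all circRNAs detected on both stages.

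Wnt signalling had 4 gained of 24 circRNAs (16.7%), and all 4 had both D8 libraries below both D4 libraries in circCPM, though not all in reads, beside the 23.3% of all circRNAs. Ror1 gave 2 of the 4. Ror1, a receptor for Wnt5a, had 17 and 0, then 60 and 47, then 28 and 47 reads in circ_0010974 (chr4:100080418-100084745, plus strand). Its circle of exons 2 to 4 (chr4:99975485-100007121) had 0 and 2, then 41 and 38, then 26 and 29. Lrp5, a Wnt co-receptor gene, had 0 and 4, then 17 and 17, then 11 and 19.

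TGF-beta, BMP and activin signalling had 5 gained of 51 circRNAs (9.80%), of which 4 were at 0 on D0. These were the 2 Bmper circles, Tgfbr2 with 16 and 11 reads on D4 and 6 and 21 on D8, and Tgfbr3 with 8 and 7, then 5 and 7. The calcium list had 7 gained of 39 (17.9%) at a median D8 to D4 ratio of 0.630. Its members above 10 reads in a library were Cacna1d, the kinase gene Prkce, with 0 and 8, then 17 and 17, then 15 and 4, and the channel gene Trpm7, with 0 and 3, then 21 and 7, then 8 and 12.

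The other lists described had shares below the background. They were extracellular matrix and adhesion (5 of 58, 8.62%), chromatin regulators (16 of 180, 8.89%), ubiquitin ligases and deubiquitinases (16 of 176, 9.09%), and DNA replication, repair and cell cycle (6 of 81, 7.41%). In the matrix list, the adhesion gene Adam23 had 0 and 0 reads, then 13 and 9, then 13 and 16 in circ_0008880. The cell surface genes Pcdh19, a protocadherin (circ_0016104), and Gpc6, a glypican, each had reads in D0 replicate 2 alone, 5 and 4, and no more than 15 in any later library. Of the chromatin list, Asxl2 circ_0000347 had 13 and 0 reads on D0 and 8 to 21 later, so its D0 replicate 1 was inside the later range. Smarca4, the catalytic subunit of a chromatin remodelling complex, had 0 and 9, then 11 and 12, then 11 and 12 in circ_0015450, with D0 replicate 2 inside the later range in circCPM. The ubiquitin ligase gene Rnf13 had 0 and 3, then 3 and 18, then 25 and 25 in circ_0010726. Ube3a, another ubiquitin ligase gene, had 0 and 14, then 17 and 14, then 9 and 13, so that D0 replicate 2 was above all 4 later libraries in circCPM. In the cell cycle list 0 of the 6 gained circRNAs were at 0 in both D0 libraries. Cdkn3, a phosphatase gene of the cell cycle, had 14 and 0 reads on D0 and 18 to 32 later, and D0 replicate 1, at 465 circCPM, was above D4 replicate 1, at 418.

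**Figure D5:**
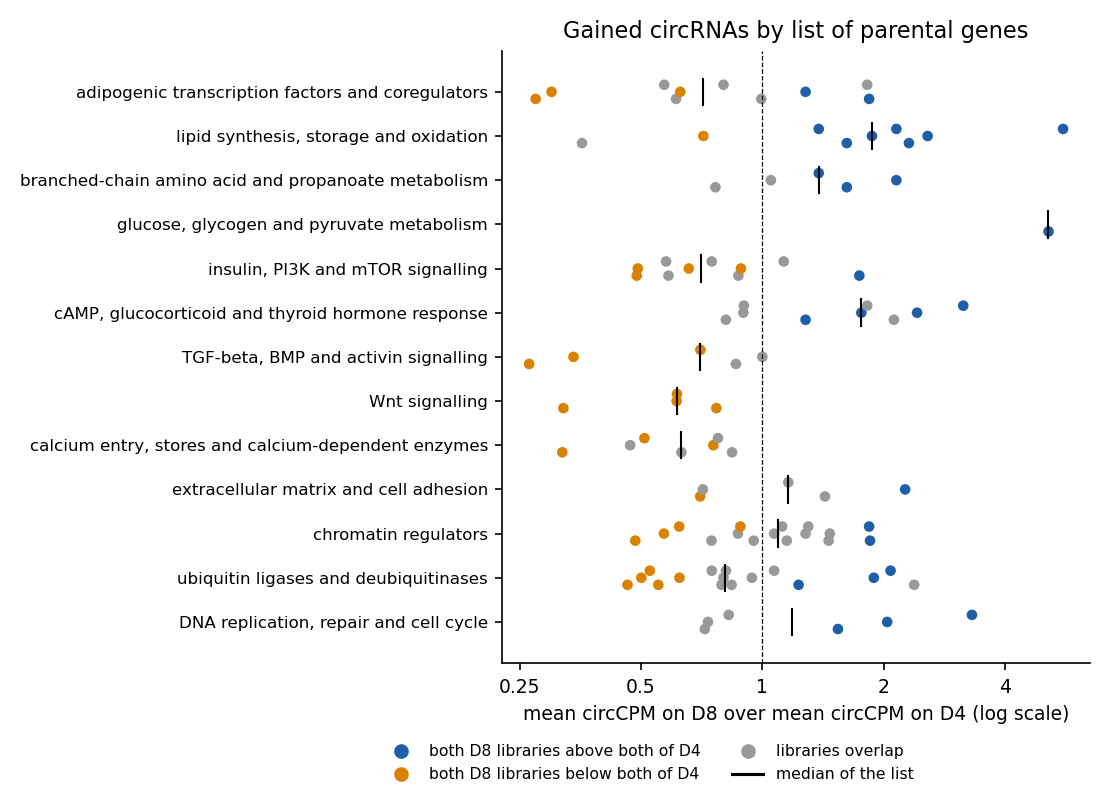
Ratio of the mean on D8 to the mean on D4 (horizontal axis, log scale) of each gained circRNA, by list of parental genes, coloured by whether the libraries of both stages overlapped, with the list's median as a black line. The median is 1.87 for lipid metabolism and 0.614 for Wnt signalling, and most other lists straddle 1.

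The 412 circRNAs came from 352 parental genes, of which 303 had 1 gained circRNA, 39 had 2, 9 had 3, and only Abca1 had 4. Abca1, the cholesterol exporter, showed how circles of 1 gene shared ends. Circ_0011675, exons 2 to 7 (chr4:53119878-53156967, minus strand), had 0 and 8 reads on D0 against 38 and 21 on D4 and 31 and 17 on D8. Its circle of exons 2 to 5 had 0 and 0, then 24 and 12, then 14 and 19, and the circle of exons 6 and 7 had 0 and 0, then 9 and 5, then 6 and 2. The fourth, exons 3 to 7, had 3 and 0, then 2 and 4, then 12 and 3, which does not separate the stages. The fifth Abca1 circRNA, circ_0011676, was detected on D0 with 9 and 7 reads and was not gained.

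Of the 352 parental genes, 137 had no other circRNA in the table and 215 had one or more. No circRNA was detected on D0 from 193 of the genes, and for 52, with 58 gained circRNAs, no circRNA had any D0 read. From the other 159 genes a different circRNA was already detected on D0. In 122 cases the gained circRNA shared its back-splice donor or acceptor with a circRNA detected on D0.

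The other 519 circRNAs of these genes are those that the rule did not take, so their own reads bear on the set too, and 213 of them could be tested. In D4 against D0, edgeR called 9 of 213, with 8 higher (3.76%) and 1 lower, where 2.2% of all circRNAs tested were called higher and 3.27% in either direction. In D8 against D0 it called 6, all higher (2.82%), where 1.21% of all were called higher and 1.49% in either direction. The shares of all include this set and the gained circRNAs. Of 31 called higher in D4 against D0, 8 were of this set and 9 were gained. Of 17 in D8 against D0, 6 were of this set and 7 were gained. Both comparisons share the D0 libraries. Leaving out D4 replicate 1 or D4 replicate 2 left 1 call in each of the 2 comparisons, and the D8 against D0 count fell to 3 without D8 replicate 2 and to 0 when the D0 and D8 libraries were fitted alone.

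The called circRNAs were from genes in which a gained circle ran beside one already present. Cped1 circ_0001447 had 21 and 25 reads on D0, then 215 and 252 on D4, then 281 and 195 on D8, with no overlap between D0 and the later stages. Its log2 fold change in D4 against D0 was 2.99 (SE 0.33, edgeR adjusted p = 0.0103), and it was called in D4 against D0 under all 13 alternatives. A long Slc10a7 circle of exons 2 to 10 (chr8:81039485-81230847) had 10 and 5 reads on D0 against 106 and 85 on D4 and 46 and 68 on D8 (log2 fold change 3.29 in D4 against D0, SE 0.45, edgeR adjusted p = 0.0225). The circle of exons 2 to 4 of that gene had 59 and 76 reads on D0, and 161 and 121 on D4. All 11 Slc10a7 circRNAs together stood at 3188 and 5695 circCPM on D0, then 15487 and 12483 on D4, then 7362 and 8644 on D8.

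Fndc3b circ_0010609, from a gene known as a factor for adipocytes, had 4 and 9 reads on D0, then 76 and 82 on D4, then 61 and 57 on D8 (edgeR adjusted p = 0.0225 on D4 and 0.0343 on D8). Tgfbr2 circ_0001853, of a TGF-beta receptor gene, had 3 and 7, then 65 and 61, then 45 and 68 (edgeR adjusted p = 0.0254 and 0.0329). Bckdhb circ_0001822 had 41 and 29, then 167 and 147, then 162 and 149 (edgeR adjusted p = 0.0302 and 0.0498). In these 3 genes a circle with D0 reads rose at both stages, and the gained circles, 3 in Fndc3b and 1 in each of the other two, were smaller in reads on D4 and D8.

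Ssbp2 circ_0000489, Med13l circ_0001396 and Pcsk5 circ_0000937 were also called higher on D4, and these calls were lost under 5, 3 and 6 of the 13 alternatives. Pcsk5 circ_0000937 belongs here only by its 2 reads in D0 replicate 1. The call that was lower was Arhgap10 circ_0014985, of a GTPase-activating protein gene, with 19 and 13 reads on D0 against 0 and 0 on D4 and 12 and 10 on D8. It was at least 7.29-fold lower on D4, against a floor of 3 reads per D4 library, and this call was lost under 6 of the 13 alternatives. On D8, Arhgap10 circ_0014982 and Svep1 circ_0011707 were called higher beside Cped1, Fndc3b, Tgfbr2 and Bckdhb. The D8 calls of Bckdhb, Svep1 and Arhgap10 were lost under 12, 12 and 13 of the 13 alternatives and those of Fndc3b and Tgfbr2 under 6. The gained members themselves gave 9 calls in D4 against D0 and 7 in D8 against D0 (beside 3.27% and 1.49% of all circRNAs tested), where the rule had used the same libraries, and nothing is read from these counts.

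The structure of the gained circRNAs is set beside that of the rest of the table, without a test. Both ends lay in exons for 401 of 412 (97.3%, beside 94.8% of the other 3250), and 385 had both ends exactly at annotated exon ends. The splice signals around the back-splice were AG and GT for 410 and AG and GC for 2. The median genomic span was 9416 bp (quartiles 3362 and 20510), beside 7218 bp for the rest. Spans under 1 kb made up 7.52% beside 11.9%, with 8.64% in the set not detected on D8 and 17.9% in that not detected on D4. The shortest was the Fkbp5 exon 2 circle of 234 bp, and the longest a Rbms3 circle of 154147 bp.

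For 384 members an annotated transcript held both ends. These had a median of 3 exons and a median spliced length of 434 bases, beside 445 for the rest. Single-exon circles made up 2.60% beside 6.36%, and 33.9% began at exon 2 beside 34.6%. The median upstream and downstream introns were 11274 and 8555 bp, beside 10408 and 8213 bp. No circBase entry existed for 146 members (35.4%, beside 35.6%). The share without an entry was 23.5% in the set not detected on D8, 35.0% in that not detected on D4 and 14.6% at all 3 stages. Among the 120 with no D0 read this was 47.5%, and among the 292 with D0 reads 30.5%.

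Sites for miRNAs were counted because circles can hold miRNA target sites, and these 3 miRNAs have been studied in fat cells. The mature sequences below are from RefSeq (GRCm38.p6), with the seed, bases 2 to 8, in capitals.
miR-17-5p: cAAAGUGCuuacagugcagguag
miR-30c-5p: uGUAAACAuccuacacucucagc
miR-130a-3p: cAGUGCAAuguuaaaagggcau

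The match searched was the 7-base complement of each seed, on the transcribed strand of the spliced circle, including across the back-splice. Of 384 gained circRNAs, 12 held the miR-17-5p match GCACTTT (3.12%, beside 3.72% of 2954 other circRNAs), 12 the miR-30c-5p match TGTTTAC (3.12%, beside 3.35%) and 14 the miR-130a-3p match TTGCACT (3.65%, beside 3.01%). The most matches to 1 of these miRNAs in a gained circle was 2, for miR-30c-5p in a Phlpp2 circle of 415 bases. A match is a stretch of letters and was not measured as a binding site.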

How the data were processed

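The study sequenced 6 libraries of mouse white adipogenesis, 2 each on D0, D4 and D8. The authors' methods name fastp 0.20.1 for trimming, BWA-MEM 0.7.17 for alignment to mm9 and CIRI2 for calling circRNAs. The processing notes of the deposited data name FastQC 0.11.9 and HISAT2 2.2.0 instead of the first 2. The authors deposited the unscaled back-splice count of each circRNA in each library, keeping circRNAs with 2 or more reads in both libraries of a stage. Here circCPM was computed from column totals. Changes were fitted over all 6 libraries with edgeR 4.0.16 (TMM, filterByExpr with minimum count 10 and minimum total 15, quasi-likelihood F-test, Benjamini-Hochberg over 1407 circRNAs, threshold 0.05, common dispersion 0.219) and tested on simulated data. DESeq2 1.42.0 was an alternative. Exons came from GENCODE vM1 (mm9, Ensembl release 65), numbered in the transcript with most exons between the ends.

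The members and the gene lists were chosen with earlier results of these data known. Named were the 20 highest members, the 3 highest of each list, all of genes with 4, the shortest and longest spans, the 5 highest absent from circBase, those nearest the D0 limit, and called circRNAs of the same genes. Circles of Mlxipl, Cacna1d and Ralgapa2 and further list members were chosen after their values were seen. Some named items of low level are not printed, and 1 highest member and 1 gene list are not reported here. With 2 libraries a stage an exact permutation test cannot go below 0.333, so none was made. Reads carried no molecular identifiers, so floors cover counting error only.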

Additional observations from a re-analysis of the deposited data

How the results depend on the processing

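Of the 412 gained circRNAs, 120 remained with 0 reads required in both D0 libraries, and the same 120 with fewer than 2 reads in each. With both D0 libraries required to lie below all 4 later ones, a setting chosen after seeing the data, there were 194. Leaving out 1 library gave 259 to 611, with 259 without D0 replicate 1 and 273 without D0 replicate 2. Minimums of 3 and 5 reads gave 381 and 302, of which 333 and 186 were among the 412.

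For the 9 calls of D4 against D0 among other circRNAs of the same genes, leaving out 1 library gave 1 to 12 calls. The 6 calls of D8 against D0 became 3 with RLE factors, with column totals alone, without the filter and with a mean of 5 reads or more, 0 with those stages alone, and 1 to 6 without 1 library. The gained circRNAs, 9 and 7 in those comparisons, gave 16 and 11 with DESeq2, 14 and 0 with 2 stages alone, and 1 to 19 and 5 to 12 without 1 library. The causes were not tested. With the replicate number as a block the counts were 1 for the other circRNAs on D8, and 3 and 1 for the gained circRNAs on D4 and D8. Deviations of same-numbered libraries correlated at 0.0348 to 0.0702. The labels give such libraries no link but the number, and low correlations of sparse counts cannot decide whether they share an origin. No gained circRNA passed D8 against D4 under any of the 13 alternatives. Where 1 library of a stage was left out, the other was assumed to vary like the rest. Read depth was a limit: 128 of the 412 members had under 10 reads in all 4 later libraries, and 52 had 10 or more in all 4.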
